A study of Homo sapiens with 6 samples.

Results

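Transcript levels of the NF-κB pathway were examined in BT-549 cells through 44 genes, chosen by name for their place in the pathway, with earlier results of these data known. The 44 are the subunits of the factor, its inhibitors, the kinases and adaptors that lead to it, and genes that it is known to switch on, among them its own feedback inhibitors. They were found by symbol among 63140 genes listed, and all 44 had enough reads to be tested along with 14451 genes in all. For a contrast by known behaviour, 20 of them were classed as inducible, because NF-κB signaling is known to raise their transcripts, and the other 24, mostly kinases and adaptors, as constitutive.

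BT-549 is an established human triple negative breast cancer line, labelled WT and without a transgene here. Polyadenylated RNA was sequenced from 3 cultures kept for 24 h in adipocyte conditioned medium (ACM, given in the labels as 50%) and from 3 cultures kept for 24 h in unconditioned medium (UCM). ACM had been collected from OP9 mouse cells made to differentiate in a medium with insulin, oleate and albumin, and the supplement describes it as undiluted in these cultures, unlike the labels. The formula of UCM was not stated in the sources used here, so serum, oleate and insulin cannot be told apart from the secretions of the adipocytes. All results come from wells of 1 cell line, so the p-values measure the spread between wells, which may be technical.

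NF-κB is a family of dimers that inhibitor proteins, the IκBs, hold inactive in the cytoplasm of a resting cell. Signals from TNF, interleukin-1 and Toll-like receptors pass through adaptors and ubiquitin ligases to the IKK complex, which marks IκBα for destruction and lets the dimers reach the nucleus. The dimers then raise transcription of cytokine and adhesion genes and of their own inhibitors, so that the pathway is often switched on and off by changes in proteins and not in the transcripts of its kinases. In breast cancer, cells of the basal and triple negative kind are known for high basal NF-κB activity.

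The DNA sequence through which the factor binds is a decamer, and copies of its consensus upstream of the start of transcription were looked for on both strands of the 250 bases before each gene's RefSeq start (GRCh38.p14). Promoters were found for 39 of the 44 members. RELB, NFKBIE, IER3, RIPK2 and IKBKB had no entry. The stretches shown here run 5′ to 3′ on the strand of the gene, with the decamers in capitals. NFKBIZ is shown because it was the member with a decamer that also passed the test below, and the others, chosen after their values had been seen, because they are feedback inhibitors or subunits with a decamer.
NFKBIZ, chr3:101827747-101827796, plus strand: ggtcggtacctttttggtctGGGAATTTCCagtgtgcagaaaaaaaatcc
TNFAIP3, chr6:137867172-137867233, plus strand: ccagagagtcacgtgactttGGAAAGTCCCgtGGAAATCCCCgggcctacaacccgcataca
NFKBIA, chr14:35404801-35404850, minus strand: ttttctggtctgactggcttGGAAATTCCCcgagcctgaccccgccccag
NFKB1, chr4:102501290-102501339, plus strand: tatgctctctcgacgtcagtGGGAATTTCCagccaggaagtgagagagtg
REL, chr2:60881507-60881557, plus strand: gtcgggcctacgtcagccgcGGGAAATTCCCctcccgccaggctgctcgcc

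NFKBIZ and NFKB1 held the same 10 letters on the strand of the gene. These begin 223 bases before the start of NFKBIZ and 49 before that of NFKB1. Read on the opposite strand, NFKBIA held these letters too, as did the copy on that strand in REL. TNFAIP3 held 2 copies, both on the opposite strand, and the capitals of REL are 2 overlapping copies on opposite strands, shifted by 1 base. A decamer was present in 7 of 16 inducible promoters (43.8%), 1 of 23 constitutive ones (4.35%, TRAF3) and 632 of 10639 promoters of tested genes (5.94%). The inducible class was drawn from known targets of the factor, so its share is no independent result. The promoters of TNFAIP2, ZC3H12A and TNIP1, 3 other inducible members that passed the test, held none.

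Libraries held 17135270 to 21053214 expected counts, and every member except TNFAIP2 had at least 100 counts in each. Levels are given in CPM, the count of a gene as a share of its library after TMM scaling, and a difference is the log2 fold change (log2 FC) of ACM against UCM from edgeR with its standard error (SE). Genes whose p-value, adjusted over all 14451, was no more than 0.05 are the ones called higher or lower. Levels are means over all cells of a culture, so fewer cells that hold a transcript and less transcript per cell cannot be told apart. The cells are labelled epithelial, yet 8 of 10 epithelial markers, with EPCAM and the 5 keratins among them, lay under 1 CPM in every library, and CDH1 and CLDN4 at no more than 1.83 CPM. All 8 mesenchymal markers of the line were expressed, summing to 6604 to 7014 CPM in ACM and 6318 to 6747 CPM in UCM. The hormone receptors ESR1 and PGR had 0 counts, while ERBB2, which encodes HER2, was present at 72.6 to 75.0 CPM in ACM and 61.6 to 73.1 CPM in UCM. All 12 leukocyte markers lay under 1 CPM in every library, with LYZ, CD3E, NKG7 and TYROBP at 0 and sums of 0.978 to 1.66 CPM in ACM and 1.66 to 1.87 CPM in UCM. Of 10 adipocyte markers, ADIPOQ, LEP, CIDEC and PCK1 were at 0, and the sums of 17.8 to 25.3 CPM in ACM and 18.4 to 35.2 CPM in UCM came mostly from RBP4.

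Of the 44 members, 5 were called and all 5 were higher in ACM, against a background of 3.35% of all tested genes called higher. These were TNFAIP2, NFKBIZ, ZC3H12A, TNIP1 and TNFRSF1A, of which the first 4 are inducible and TNFRSF1A is constitutive. TNFAIP2 passed the filter for testing only through its ACM counts. DESeq2 called all 5 and added IER3, TNFAIP8, TNFAIP3, NFKB2 and RELB (10 members, background 5.52%). None of the 44 was called lower by edgeR, against 2.21% of all genes, while 3 were lower by the unadjusted p-value (MAP3K14, MYD88 and OTULIN, background 11.5%) and DESeq2 called 1, MAP3K14 (background 3.21%). The study's thresholds, set there on DESeq2 results, were a fold change of 0.58 on the log2 scale and a p of 0.05. Applied here to the edgeR values with unadjusted p, they were passed upwards by 8 members (background 4.12%) and downwards by 0 (background 1.71%). All 8 were inducible, and they were TNFAIP2, NFKBIZ, IER3, TNFAIP8, TNFAIP3, IRAK2, ZC3H12A and TNIP1. The median log2 FC was 0.52 over the 20 inducible members, -0.05 over the 24 constitutive members and -0.01 over all genes tested.

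**Figure D1:**
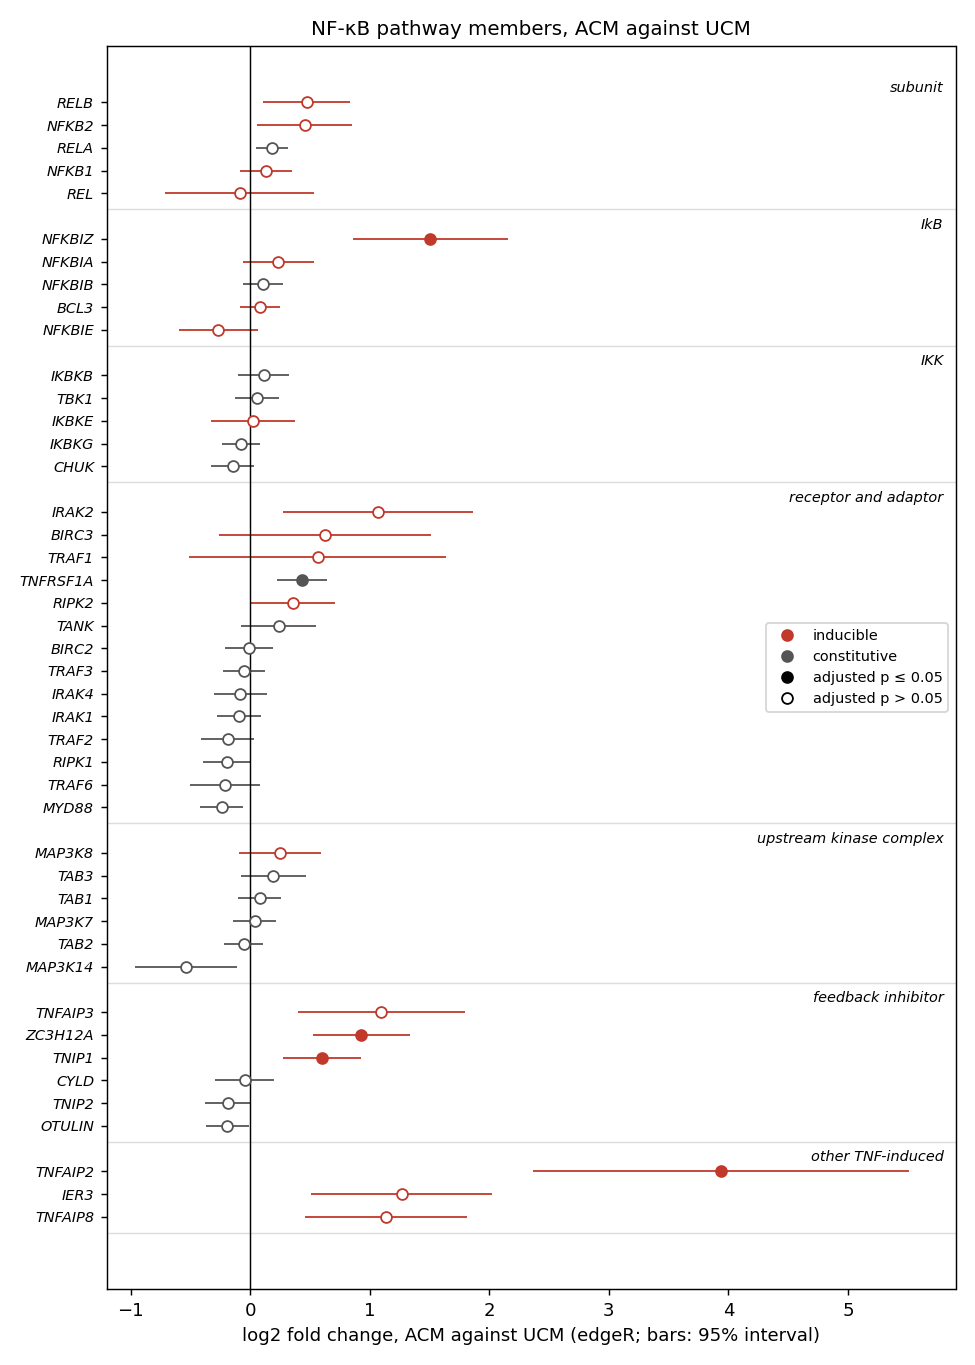
Log2 FC of ACM against UCM (x axis) for each of the 44 members, grouped by role, with points from edgeR on 3 libraries per group and bars for the 95% interval. Filled points are the 5 members called after adjustment, and inducible members (red) spread to the right of 0 with wider bars than constitutive members (grey).

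Among the subunits of the factor, edgeR called 0 of 5, against 3.35% of all genes called higher and 2.21% lower. By the unadjusted p-value 3 of 5, RELA, NFKB2 and RELB, were higher (background 11.9%), and DESeq2 called 2 of these (background 5.52%). RELA, the constitutive subunit that carries the main activation domain, measured 143, 149 and 145 CPM in ACM, in the order of replicates 1, 2 and 3 used throughout, and 129, 128 and 128 CPM in UCM. These levels did not overlap, yet the difference was small, with a log2 FC of 0.18 (SE 0.06, adjusted p = 0.106). NFKB2, whose product p100 is cut to p52 in the noncanonical arm, stood at 135, 142 and 111 CPM in ACM and 119, 82.7 and 81.2 CPM in UCM. RELB, the partner of p52, stood at 47.4, 67.3 and 51.6 CPM in ACM and 47.5, 36.7 and 35.4 CPM in UCM. In both genes UCM replicate 1 reached into the ACM range, and their log2 FC values of 0.45 (adjusted p = 0.161) and 0.47 (adjusted p = 0.122) did not pass the test. NFKB1, the source of p50, had a log2 FC of 0.13, with a 95% interval from -0.08 to 0.35. REL, at 8.73 to 9.65 CPM in ACM and 6.02 to 14.3 CPM in UCM, had the value -0.09, which became 0.29 without UCM replicate 1.

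The IκB family differed between members. NFKBIZ (ENSG00000144802.11, chr3:101827991-101861022), which encodes the nuclear cofactor IκBζ that late target genes such as IL6 need, measured 86.5, 131 and 77.4 CPM in ACM and 44.4, 26.8 and 32.2 CPM in UCM. All ACM levels lay above all UCM levels, and the rise was 2.84-fold (log2 FC 1.51, SE 0.27, adjusted p = 0.0335). The gene overlaps NXPE3 on the same strand, and its expected count was not a whole number in 1 library. NFKBIA encodes IκBα, the inhibitor that is destroyed and made anew in each round of signaling. It measured 49.6, 57.7 and 53.3 CPM in ACM and 52.3, 35.9 and 48.1 CPM in UCM. Its groups overlapped in CPM through UCM replicate 1, with a log2 FC of 0.24 (adjusted p = 0.327) and an interval from -0.06 to 0.53. NFKBIB, the slower inhibitor IκBβ, had the value 0.10, the nuclear cofactor BCL3 0.08 and NFKBIE, the source of IκBε, -0.27, and none of these passed the test.

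For the IKK complex and its relatives, all 5 log2 FC values lay between -0.15 and 0.11 and 0 were called by edgeR or DESeq2 or passed the unadjusted p-value. Of all genes, edgeR called 3.35% higher and 2.21% lower, DESeq2 5.52% and 3.21%, and the unadjusted p-value was passed by 11.9% and 11.5%. Among the catalytic subunits, IKBKB (IKKβ) stood at 101 to 119 CPM in ACM and 93.8 to 115 CPM in UCM, and CHUK (IKKα) at 39.1 to 43.4 and 44.9 to 48.7 CPM. IKBKG, the scaffold NEMO, had the value -0.08, with an interval from -0.24 to 0.08. Its expected counts were not whole in any of the 6 libraries, which marks reads shared with a near-identical copy, so its level is uncertain. TBK1 and IKBKE, the IKK-related kinases of the interferon response, had values of 0.06 and 0.02. The sign for IKBKE turned to -0.05 with TPM or effective lengths, and so it carries no direction.

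Of 14 receptors, adaptors and their kinases and ligases, TNFRSF1A alone was called higher (background 3.35%) and 0 were called lower (background 2.21%). TNFRSF1A (ENSG00000067182.9, chr12:6328757-6342114), the TNF receptor of most cell types, measured 180, 200 and 203 CPM in ACM and 124, 157 and 152 CPM in UCM. Its groups did not overlap, and the rise was 1.35-fold (log2 FC 0.43, SE 0.09, adjusted p = 0.0304). This call was lost in 7 of 15 alternative fits. IRAK2, a kinase that prolongs signals from interleukin-1 and Toll-like receptors, measured 39.1, 71.3 and 36.6 CPM in ACM and 30.7, 20.4 and 18.7 CPM in UCM. The groups were apart, with ACM replicate 2 far above the other cultures, and its log2 FC of 1.07 (SE 0.32) did not pass the test (adjusted p = 0.122). BIRC3, the ubiquitin ligase cIAP2, stood at 19.4, 26.4 and 18.2 CPM in ACM and 22.1, 10.0 and 9.04 CPM in UCM. TRAF1, an adaptor that itself is a target of the factor, stood at 15.6, 22.1 and 12.2 CPM in ACM and 18.7, 8.33 and 6.36 CPM in UCM. UCM replicate 1 again lay within the ACM range in these genes, and the log2 FC values of 0.63 for BIRC3 (adjusted p = 0.372) and 0.56 for TRAF1 (adjusted p = 0.510) did not pass. RIPK2, the kinase of NOD receptors, stood at 38.7, 60.8 and 47.8 CPM in ACM and 34.9, 41.0 and 39.1 CPM in UCM, with a log2 FC of 0.36 (adjusted p = 0.209).

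The constitutive adaptors had smaller differences. IRAK1, the most abundant member, stood at 855 to 963 CPM in ACM and 869 to 1022 CPM in UCM, with a log2 FC of -0.09. MYD88, the adaptor shared by interleukin-1 and most Toll-like receptors, measured 33.5, 37.2 and 36.0 CPM in ACM and 41.0, 41.8 and 43.1 CPM in UCM. Every ACM level of MYD88 lay below every UCM level, but the log2 FC of -0.24 had an adjusted p of 0.109. The other members of this role, TRAF2, TRAF3, TRAF6, BIRC2, IRAK4, RIPK1 and TANK, had log2 FC values from -0.21 to 0.24 and none was called.

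Among the kinase complexes upstream of IKK, edgeR called 0 of 6 genes, against 3.35% of all genes called higher and 2.21% lower. MAP3K7 (TAK1), which phosphorylates IKKβ, and its partners TAB1, TAB2 and TAB3 had values between -0.05 and 0.19. MAP3K8, a kinase freed when p105 is degraded, had the value 0.25. MAP3K14 (chr17:45263119-45317029), the kinase NIK that starts the noncanonical arm and is held low by protein turnover, measured 71.9, 42.6 and 54.7 CPM in ACM and 90.6, 79.2 and 76.0 CPM in UCM. All ACM levels were below all UCM levels. Its log2 FC of -0.54 (SE 0.18) was the lowest among the members and did not pass the test (adjusted p = 0.134), whereas DESeq2 called it, as did edgeR without ACM replicate 1 (background 1.4%). MAP3K14 counts were not whole in any of the 6 libraries and the gene overlaps an antisense transcript, MAP3K14-AS1, whose reads cannot be told apart from its own without strand, which the sources used here do not give.

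Of 6 feedback inhibitors, ZC3H12A and TNIP1 were called, both higher in ACM (background 3.35%). ZC3H12A (ENSG00000163874.11, chr1:37474580-37484377), the endoribonuclease Regnase-1 that degrades cytokine transcripts, measured 18.2, 16.6 and 14.9 CPM in ACM and 10.3, 6.18 and 9.62 CPM in UCM. Its groups did not overlap, and it rose 1.91-fold (log2 FC 0.93, SE 0.18, adjusted p = 0.0194). TNIP1 (ENSG00000145901.17, chr5:151029945-151093577), which encodes ABIN-1, a ubiquitin-binding partner of A20, measured 150, 203 and 137 CPM in ACM and 115, 102 and 105 CPM in UCM. Again the groups did not overlap, and TNIP1 rose 1.52-fold (log2 FC 0.60, SE 0.14) with an adjusted p of 0.0496, at the edge of the threshold. TNFAIP3, which encodes A20 itself, the ubiquitin-editing enzyme that shuts off signals at RIPK1 and NEMO, measured 28.0, 39.0 and 22.7 CPM in ACM and 19.6, 10.6 and 11.5 CPM in UCM. These levels were apart too, but the spread was wider, and the log2 FC of 1.10 (SE 0.29) had an adjusted p of 0.0856. The constitutive inhibitors CYLD, OTULIN and TNIP2, of which the first 2 remove ubiquitin chains, had values of -0.05, -0.19 and -0.19, and none was called.

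**Figure D2:**
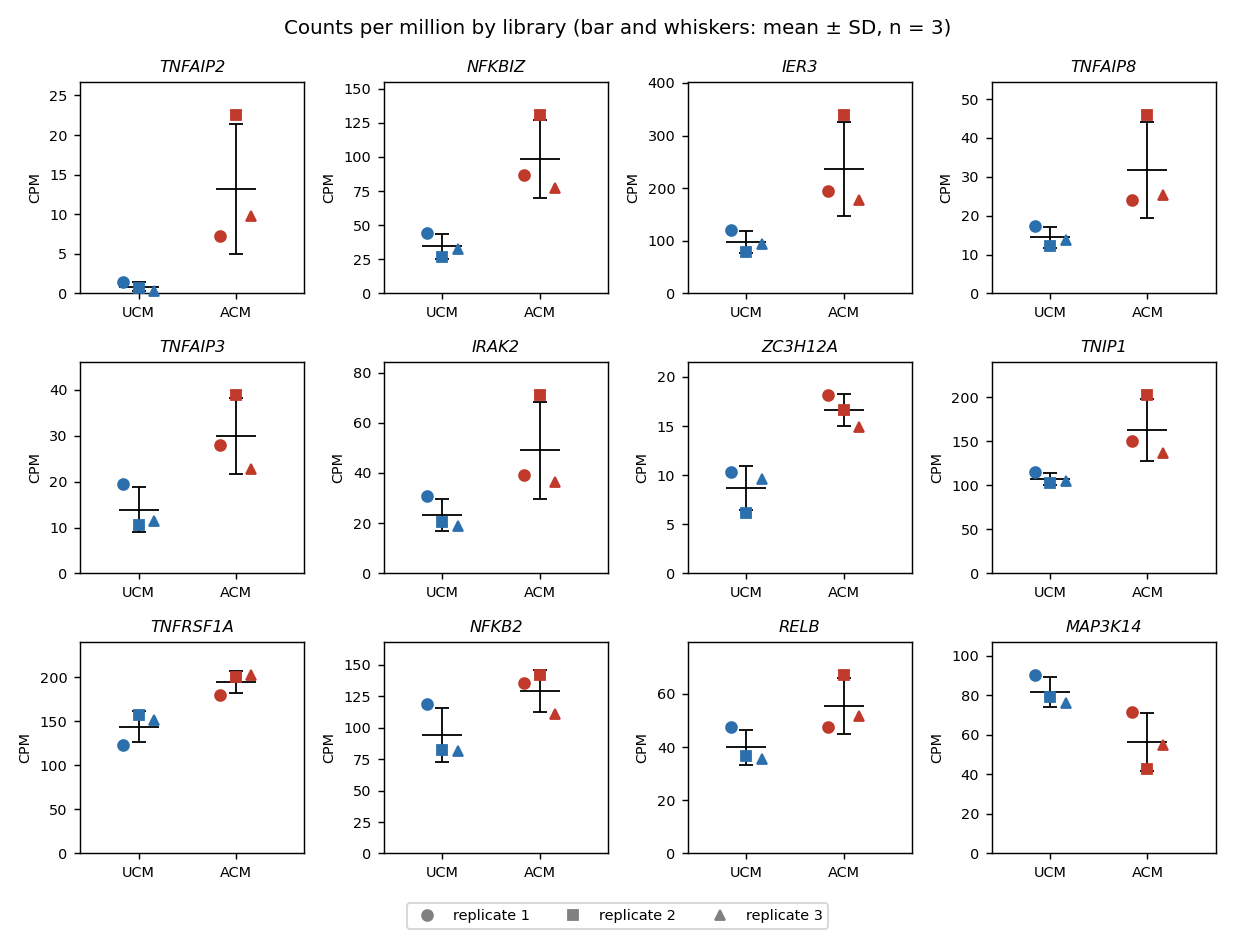
CPM in each library (y axes from 0, each with its own scale) for 12 members, UCM in blue and ACM in red, with a symbol for each replicate and a bar and whiskers for the mean ± SD of 3 libraries. ACM lies above UCM without overlap for the 8 members past the study's thresholds and TNFRSF1A, the groups overlap for NFKB2 and RELB, and ACM lies below UCM for MAP3K14.

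Of the 3 other TNF-induced genes, TNFAIP2 was called higher (background 3.35%) and had the largest log2 FC of the 44 members. TNFAIP2 (ENSG00000185215.11, chr14:103121476-103137439), a TNF-induced gene tied to membrane protrusions between cells, measured 7.22, 22.6 and 9.73 CPM in ACM and 1.47, 0.645 and 0.35 CPM in UCM. The UCM levels rest on 31, 12 and 6 counts, against 152, 401 and 179 in ACM. TNFAIP2 passed the filter for testing only through its ACM counts, so its call and its place at the top add little. The rise was 15.4-fold with a wide interval (log2 FC 3.94, 2.37 to 5.51, adjusted p = 0.0267). Its log2 FC was 3.32 without ACM replicate 2, 4.70 without UCM replicate 1 and 2.46 by limma on log2 TPM with 1 added, and the call was lost without UCM replicate 2 (adjusted p = 0.147) or UCM replicate 3 (adjusted p = 0.120). In TPM, which divides by the effective length of the transcripts found in a library, TNFAIP2 measured 4.88, 10.6 and 7.22 in ACM and 0.640, 0.870 and 0.110 in UCM. Its effective length ranged from 1042 bases in UCM replicate 2 to 4407 bases in UCM replicate 3, a 4.23-fold span, so the order of its UCM libraries differed between CPM and TPM. IER3, an early response gene that modulates cell death, measured 194, 340 and 177 CPM in ACM and 121, 79.6 and 94.1 CPM in UCM. TNFAIP8, whose product guards against cell death, measured 23.9, 46.0 and 25.4 CPM in ACM and 17.3, 12.1 and 13.8 CPM in UCM. Both genes were apart between groups but did not pass the test, with log2 FC values of 1.27 (SE 0.30, adjusted p = 0.0783) and 1.14 (SE 0.28, adjusted p = 0.0725). IER3 counts were not whole in any library, and the gene overlaps IER3-AS1 on the opposite strand.

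The classes differed in direction and in spread. All 3 ACM levels lay above all 3 UCM levels in 8 of 20 inducible and 3 of 24 constitutive members (background 13.9%), and below them in 0 and 6 (background 15.1%). The 3 were TNFRSF1A, RELA and NFKBIB, and the 6 were CHUK, MYD88, TRAF6, MAP3K14, TNIP2 and OTULIN. A positive log2 FC was found in 18 of 20 inducible and 9 of 24 constitutive members (background 48.1%). For 22 of the 24 constitutive members the 95% interval lay wholly within 0.58 of 0, as it did for 4 of the 20 inducible ones. The interval reached a median of 0.19 to each side in the constitutive and 0.40 in the inducible class.

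Replicates of a group differed in the inducible class too. ACM replicate 2 was the highest of the ACM cultures in 16 of 20 inducible members (80%), against 34.1% of all tested genes. UCM replicate 1 was the highest of the UCM cultures in 16 of 20 as well, against 38.0% of all genes. In the constitutive class the same libraries were the highest in 8 and 13 of 24. The median level of the inducible members relative to the UCM mean, in log2 units of CPM with 0.1 added, was 0.51, 0.84 and 0.33 in the ACM cultures. In the UCM cultures it was 0.28, -0.16 and -0.04. UCM replicate 1 came close to ACM replicate 3, although no UCM median reached an ACM median. For the constitutive members the ACM medians were -0.04, -0.05 and -0.02, the UCM medians were 0.03, -0.03 and -0.00, and the groups overlapped. Without ACM replicate 2 and UCM replicate 1, a choice made after their values had been seen, 13 members were higher (background 4.22%), all 5 called with the full data among them. Without UCM replicate 1 alone, 9 members were higher (background 5.03%). Without UCM replicate 2, ZC3H12A alone was higher (background 0.846%). Without UCM replicate 3, edgeR called 0 members (background 1.06%), and 10 were higher by the unadjusted p-value (background 9.68%). Without ACM replicate 1, 2 or 3, the counts were 3 (background 2.83%), 4 (background 1.34%) and 5 (background 2.17%), with 2, 3 and 4 of the original 5 among them. What set these libraries apart was not tested.

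**Figure D3:**
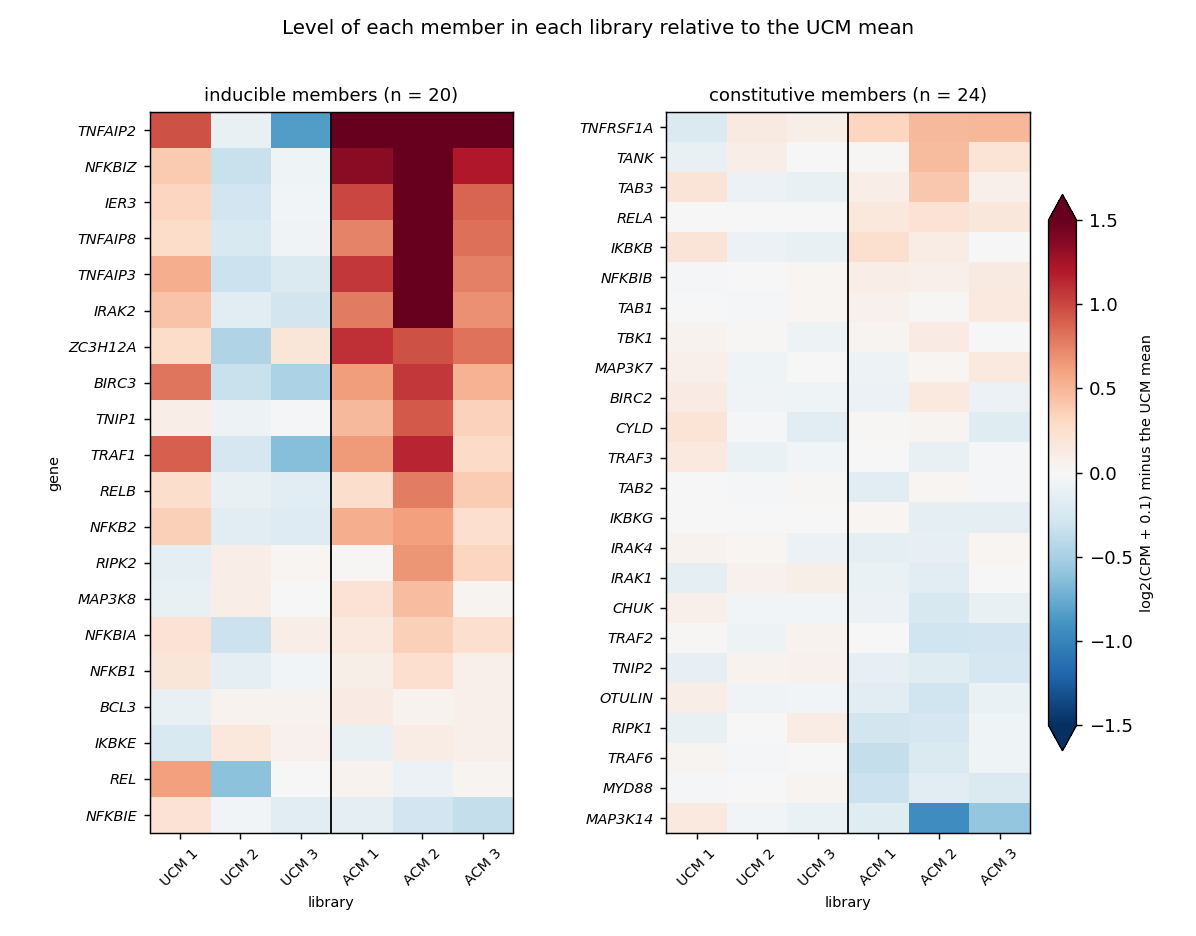
Level of each member in each library as log2(CPM + 0.1) minus its UCM mean, with inducible members on the left and constitutive members on the right, ordered by log2 FC, and colours cut at 1.5 in each direction. The ACM columns of most inducible members are red, darkest in ACM replicate 2, UCM replicate 1 is paler red, and the constitutive panel is paler, with the strongest colours for MAP3K14 and TNFRSF1A and in single ACM libraries for TANK, TAB3 and TRAF6.

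Levels of different genes were compared in TPM, which is scaled for transcript length. In UCM the members ran from IRAK1 at 524 TPM ± 37.6 (SD, n = 3) and IER3 at 146 ± 33.8 down to TRAF6 at 3.34 ± 0.14, REL at 1.6 ± 0.552 and TNFAIP2 at 0.540 ± 0.390. TNFRSF1A at 110 ± 12.3 TPM and RELA at 105 ± 13.7 TPM, next in the order, did not differ beyond their spread. RELA was the most abundant subunit, ahead of NFKB2 at 67.8 ± 21.1, RELB at 31.1 ± 5.82 and NFKB1 at 20.6 ± 1.84 TPM. Among the inhibitors that bind the dimers, NFKBIA at 60.9 ± 6.19 TPM exceeded NFKBIB at 44.02 ± 0.740 and NFKBIE at 9.84 ± 0.872 TPM in UCM. NFKBIZ, at 24.8 ± 4.20 TPM in UCM, stood at 64.0 ± 16.0 TPM in ACM, near NFKBIA at 77.1 ± 6.71 TPM. The groups of NFKBIA, which overlapped in CPM, were apart in TPM, at 71.6, 75.2 and 84.6 in ACM and 64.1, 53.7 and 64.8 in UCM. With effective lengths as offsets in edgeR its log2 FC was 0.37 (adjusted p = 0.0992). The median level over the inducible members was 13.9 TPM in UCM and 22.7 TPM in ACM, and over the constitutive members 26.6 and 20.8 TPM. The genes in the middle of the constitutive class were not the same in both groups, so its pair does not measure a fall per gene. The median of the log2 FC values in that class was -0.05 by edgeR and -0.06 by limma on log2 TPM with 1 added. Effective lengths varied less than 1.5-fold between libraries for every member except TNFAIP2.

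**Figure D4:**
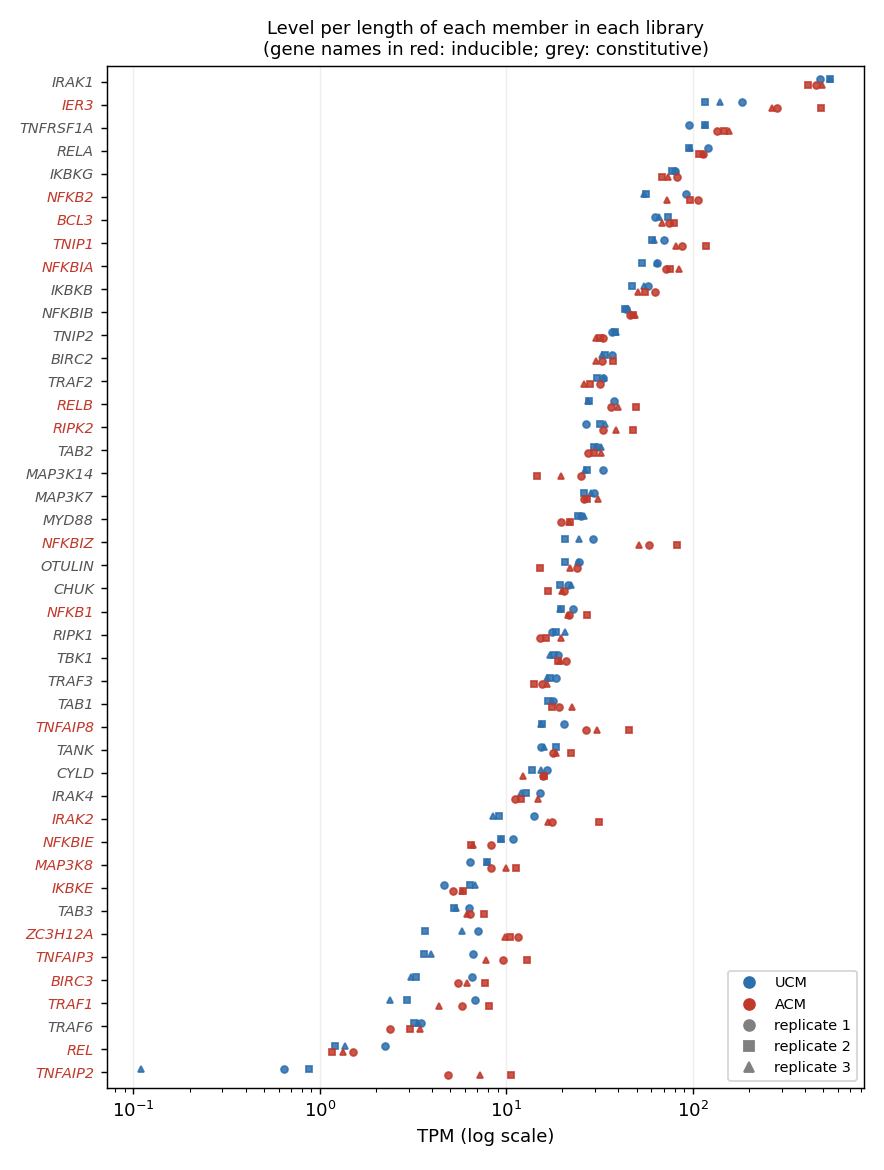
TPM on a log axis in each library for the 44 members, ordered by their mean in UCM, with UCM in blue, ACM in red, a symbol for each replicate, and inducible gene names in red. Constitutive members such as IRAK1 and TRAF6 keep both groups close together along the order, while NFKBIZ, TNFAIP8 and TNFAIP2 stand with the ACM symbols to the right of all UCM symbols.

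Other genes of the pathway were counted from 3 lists written by hand. Of 34 receptors and ligands, 15 were tested, with a median log2 FC of 0.48, 5 called higher (background 3.35%) and 1 lower (background 2.21%). TNFRSF1B, the second TNF receptor, measured 5.56, 12.9 and 5.33 CPM in ACM and 1.04, 1.83 and 1.22 CPM in UCM (log2 FC 2.53, adjusted p = 0.0143). TNFRSF11B, the decoy receptor osteoprotegerin, had a log2 FC of 1.23 (adjusted p = 0.0120) and TNFSF12, the ligand TWEAK, of 0.55 (adjusted p = 0.0368). TNFRSF12A, the receptor for TWEAK, fell by 0.33 on the log2 scale (adjusted p = 0.0309). IL1B, the cytokine interleukin-1β, had 14, 26 and 12 counts in the ACM libraries against 2, 0 and 0 in UCM. Pooled over the cultures and scaled for total counts, the ratio was 25.7, with a 95% counting interval from 6.76 to 218. That interval covers counting only and leaves out the spread between wells. IL1B was among the 5 called higher (edgeR, adjusted p = 0.0170). However, it passed the filter only through its ACM counts, so its call adds little.

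Of 45 further adaptors, ligases and regulators, 40 were tested, with a median of -0.03, 0 called higher by edgeR (background 3.35%), 3 higher by the unadjusted p-value (background 11.9%) and 1 called lower (background 2.21%), CARD10, a scaffold for BCL10 and MALT1 (log2 FC -0.38, adjusted p = 0.0318). Of 45 known target genes outside the pathway, 33 were tested, with a median of 0.94, 9 called higher (background 3.35%) and 0 lower (background 2.21%), where 2 were lower by the unadjusted p-value (background 11.5%). TNC, which encodes the matrix protein tenascin C, measured 338, 437 and 288 CPM in ACM and 159, 145 and 143 CPM in UCM (log2 FC 1.25, adjusted p = 0.00497). The other targets with the smallest p-values were the chemokines CCL2 (log2 FC 0.80, adjusted p = 0.00893) and CXCL1 (1.97, adjusted p = 0.0155), the adhesion molecule ICAM1 (0.94, adjusted p = 0.00974) and PTX3, which encodes the pattern recognition protein pentraxin 3 (2.23, adjusted p = 0.0131).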

How the data were processed

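Per the labels, the reads of the BT-549 libraries, paired and polyA-enriched, went through Trim Galore, then STAR against GRCh38, then RSEM. Tool versions and the annotation are not given in the sources used here. For each gene and library the authors deposited an expected count, which splits reads shared between transcripts or genes and is not scaled for depth, a TPM value scaled to the library's sum, and the effective length. A deposited table of DESeq2 fold changes with errors and p-values was not used. Symbols and positions came from GENCODE 44, where 61547 of 63140 identifiers matched with their version and 62541 without it. TNIP1 matched without its version.

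Expected counts were rounded and 14451 genes that passed filterByExpr were fitted in R 4.3.3 with edgeR 4.0.16 (TMM, robust quasi-likelihood, condition as the only term, all 6 libraries) and Benjamini-Hochberg adjustment. The SE is the absolute log2 FC over the square root of F, and 95% intervals use the fit's degrees of freedom. The script was tested on simulated data. No library was dropped from the reported values. Alternatives were DESeq2 1.42.0, RLE size factors, other filters, limma 3.58.1 on log2 TPM with 1 or 0.1 added, effective lengths as offsets, a replicate block and each library left out. The members, classes and lists were chosen with earlier results of these data known. Levels per library are given for members past either threshold or whose call depends on 1 library, and for other pathway lists the up to 5 called genes with the smallest p-value are named. Genes named outside that rule were chosen after their values had been seen.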

Additional observations from a re-analysis of the deposited data

How the results depend on the processing

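Over 15 alternatives, 14 of them planned, the count of members higher in ACM moved from 5 to 10 with DESeq2 (background 5.52%). It was 3 with limma on log2 TPM with 1 or with 0.1 added, where 230 and 234 of all genes were higher. Without ACM replicate 2 and UCM replicate 1 it was 13 (background 4.22%). With each library left out in turn it was 0 to 9 (backgrounds 0.846% to 5.03%). Over all genes, where 484 were higher and 320 lower, the counts ran from 125 to 1045 and from 62 to 703. The count of members lower rose from 0 to 1, always MAP3K14, with DESeq2 and with a filter of at least 1 count, and was 0 or 1 with each library left out. The inducible median ran from 0.35 to 0.66 with a library left out, and the constitutive median from -0.065 to -0.0036. Among the calls, the adjusted p-value reached at most 0.15 for NFKBIZ, 0.147 for TNFAIP2 and 0.0791 for ZC3H12A. It reached 0.186 for TNIP1 and 0.123 for TNFRSF1A. The call was lost in 5 of 15 alternatives for NFKBIZ, 6 for ZC3H12A, 8 for TNIP1 and 7 for TNFRSF1A. For TNFAIP2 it was lost in 4 of 14, as TNFAIP2 did not pass the filter of 10 counts in every library. Limma on log2 TPM and effective lengths each kept 2 of the 5 calls. All 5 members kept their sign in every alternative that tested them. The sign turned for 7 members. REL was 0.33 without both libraries, and IKBKE -0.053 and -0.059 with limma (1 and 0.1 added), -0.047 with effective lengths and -0.13 without both. TRAF3 was 0.056 and CYLD 0.025 without both, and BIRC2 0.0023 with at least 10 counts in every library. With each library left out, REL ran from -0.35 to 0.29, IKBKE from -0.080 to 0.10, TRAF3 from -0.10 to 0.033, BIRC2 from -0.097 to 0.063, MAP3K7 from -0.024 to 0.10, TAB2 from -0.10 to 0.012 and CYLD from -0.12 to 0.073. The cause was not tested.

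The labels give same-numbered libraries no link beyond the number, so whether they were paired is not known. Their deviations correlated at 0.318, 0.0347 and 0.177, and ACM replicate 3 correlated best with UCM replicate 2 (0.196). With the number as a block, 4 members were higher (NFKB2, RIPK2, TNFRSF1A and ZC3H12A) and 1 lower (MAP3K14), among 909 and 703 of all genes. NFKBIZ, TNFAIP2 and TNIP1 were not called in that fit. Depth limits TNFAIP2 most among the members, with 6 counts in its lowest library.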
